A study of Bos taurus with 18 samples.

Results

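LOC107131356 is a gene on bovine chromosome 4, chr4:95502419-95589357 of the UMD 3.1 genome, 86939 bp long. It is 1 of the 25 genes that the study fine-mapped for gestation length, and its span was taken from the study's supplementary gene list. The CpG positions described here were all those that any of 18 Holstein bulls lists inside the gene or within 2000 bp of either end. They number 1753 of the 40640718 positions of the series, with 1673 inside the gene, 64 below its lower end and 16 above its upper end. The strand, exons and introns of the gene in UMD 3.1 were not analysed here, so "lower" and "upper" refer to coordinates only. In the RefSeq annotation of a later cattle genome, ARS-UCD2.0, the gene has the identifier 107131356 and is classed as a long non-coding RNA. That entry is longer than the UMD 3.1 span used here and also holds the microRNA genes MIR29A and MIR29B-1, so the gene ends, body and flanks below are those of the study's span only. Its nearest protein-coding neighbours in the order of that genome are KLF14, a gene of the imprinted MEST block, and MKLN1.

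DNA methylation at CpG sites is copied at cell division, and in mammalian sperm most of the genome outside CpG-rich promoters is highly methylated. Bisulfite turns unmethylated cytosine into uracil, which is read as T, while methylated cytosine is still read as C. The percent of reads with C at a position is its methylation level in the sperm of that bull. An unmethylated C and a C-to-T base change in the bull's DNA give the same read, so the percent alone cannot tell them apart. Genotypes of the bulls were not analysed here.

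The samples were sperm DNA of 18 adult bulls, 1 library for each bull, analysed by whole-genome bisulfite sequencing. The labels put bulls in a high or low group for 5 traits. Gestation length (GL) has 4 bulls in each group. The other traits have 3, and they are body depth (BDE), sire calving ease (SCE), and the conception rates of the sire (SCR) and of the cow (CCR). High GL held H03, H09, L03 and L05, and low GL held H02, H05, L01 and L07. High SCE was H03, H07 and L02 against low H01, H06 and L09, and high BDE was H02, L03 and L08 against low H05, H09 and L02. High CCR was H08, H09 and L06 against low H06, L08 and L09, and high SCR was H01, H02 and H03 against low L01, L02 and L03. The letters H and L are part of the bull names. For SCR they coincide with the high and low groups, while every group of the other traits holds both letters. Many bulls stand in groups of several traits, so the 5 comparisons share animals. H04 and L04 are in no group by their labels and were not compared. The bulls list between 2858992 and 22048556 positions with at least 10 reads each. In the gene they list between 119 positions (H01) and 1193 (H08), with a median of 535. Coverage is known for 6 bulls, in which a position of the gene had 10 to 23 reads with a median of 12. The depth of the other 12 is unknown.

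The mean methylation of LOC107131356 was high in the sperm of every bull. Over the 16 labelled bulls the gene mean, which is the mean percent over the positions a bull lists, was 93.2% ± 1.12 (SD, n = 16). It was lowest in H02 at 90.1%, had a median of 93.2% and was highest in L05 at 95.1%. Of the 10263 values of the 18 bulls, 94.1% were at 80% or more and 56.2% were at exactly 100%. Only 67 values, or 0.653%, lay under 20%, and 21 of these came from H02. The median over positions was 100% in all bulls except L07 and L08.

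The gene was divided into 46 tiles of 2000 bp, the unit used for the comparisons. Of the 800 values of a tile in a bull, 31 lay under 80% and 2 under 50%. No tile had a mean over bulls under 80%, whereas 16.3% of the 343256 tiles listed in all 18 bulls across the genome did. Of the 28 gene tiles listed in all 18 bulls, 22 (78.6%) had a mean of 90% or more, against 65.1% of all such tiles. The median tile mean was 94.2% in the gene and 92.7% across the genome. The tiles with the lowest means were the one from 95508001 (84.0%, or 89.0% without L07, which lists 1 position there), the one from 95572001 (85.9%) and the one from 95500001 at the lower end (86.8%). The highest mean, 96.1%, was found in the tile from 95546001. The tile from 95520001 to 95522000, which holds the sequence variant for which the study lists the gene, had a mean of 94.2% with bulls between 85.3% (L09) and 100% (L08).

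**Figure D1:**
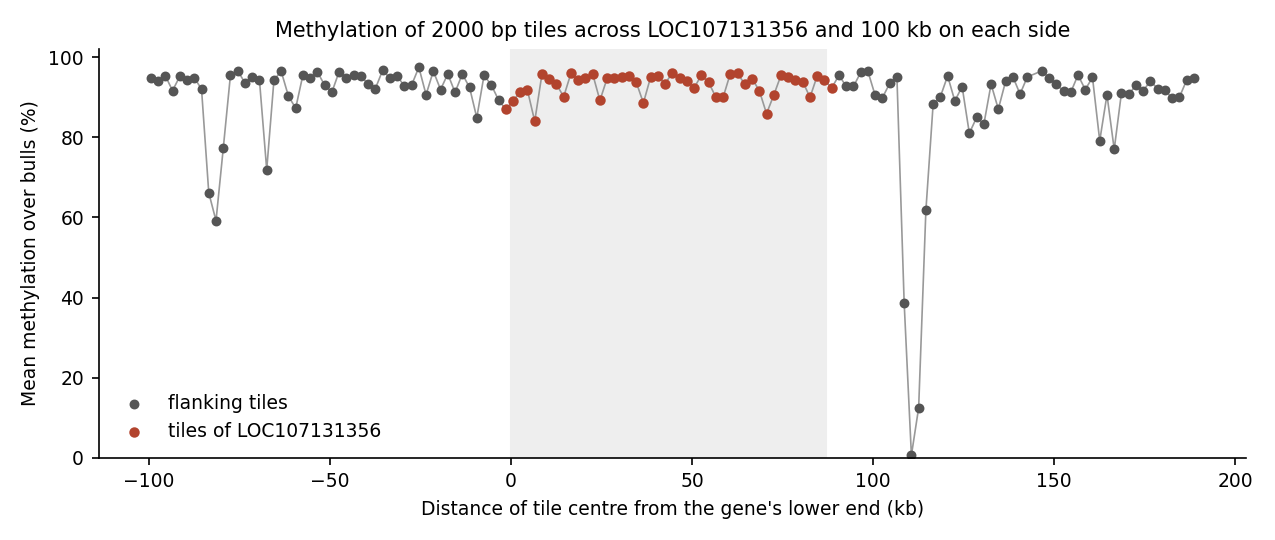
Mean methylation over bulls (y axis, percent) of tiles of 2000 bp by the distance of their centre from the gene's lower end (x axis, kb), with the gene shaded and its tiles in red. The gene tiles run from 84.0% to 96.1%, and the only tiles under 50% lie above the gene, where the lowest is at 0.640%.

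The gene mean was compared with the mean over both sides. In 16 of 16 labelled bulls the gene mean exceeded the mean of the 4173 positions in the 100000 bp on each side, by 4.17 points ± 2.19 (SD, n = 16). The difference ranged from 1.05 points in H02 to 9.08 in L05. The two-sided sign-flip permutation test gave p = 3.05e-05, the smallest it can give with 16 bulls. The surroundings had a mean of 89.0%, and 10 of their 98 tiles had a mean under 80%, compared with 0 of 46 in the gene. The median tile mean was 94.2% in the gene, 94.3% below it and 91.7% above it. All 3 tiles under 50% lay above the gene, the nearest 20644 bp from its end at 38.7% and the next at 0.640%. Below the gene the nearest tile under 20%, among those listed in at least 9 bulls, lay at 210419 bp. With 20000 bp on each side the difference was 1.94 points ± 2.49 (SD, n = 16) and was positive in 14 of 16 bulls (exact sign-flip permutation test, two-sided, p = 0.00272).

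Among the 25 fine-mapped genes LOC107131356 had the highest mean methylation, 93.4% ± 1.14 (SD over 18 bulls). The next genes were MROH1 at 92.7% ± 1.93, ARHGAP39 at 92.5% ± 2.56 and NRG2, a neuregulin growth factor gene, at 92.1% ± 1.37. These neighbours in the order differed from it by less than the spread over bulls of at least 1 gene of each pair. At the other end were DGAT1, which encodes an enzyme of triglyceride synthesis, at 39.7% ± 18.5 and SCRT1 at 29.2% ± 11.2. By the mean absolute difference of the bull means over 18 bulls, the most alike genes were NRG2 (1.65 points), MYH10, a non-muscle myosin heavy chain gene (1.90 points), and WWP2, a ubiquitin ligase gene (2.06 points). The mean of LOC107131356 was the higher in 16, 15 and 16 of the 18 bulls in these pairs.

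**Figure D2:**
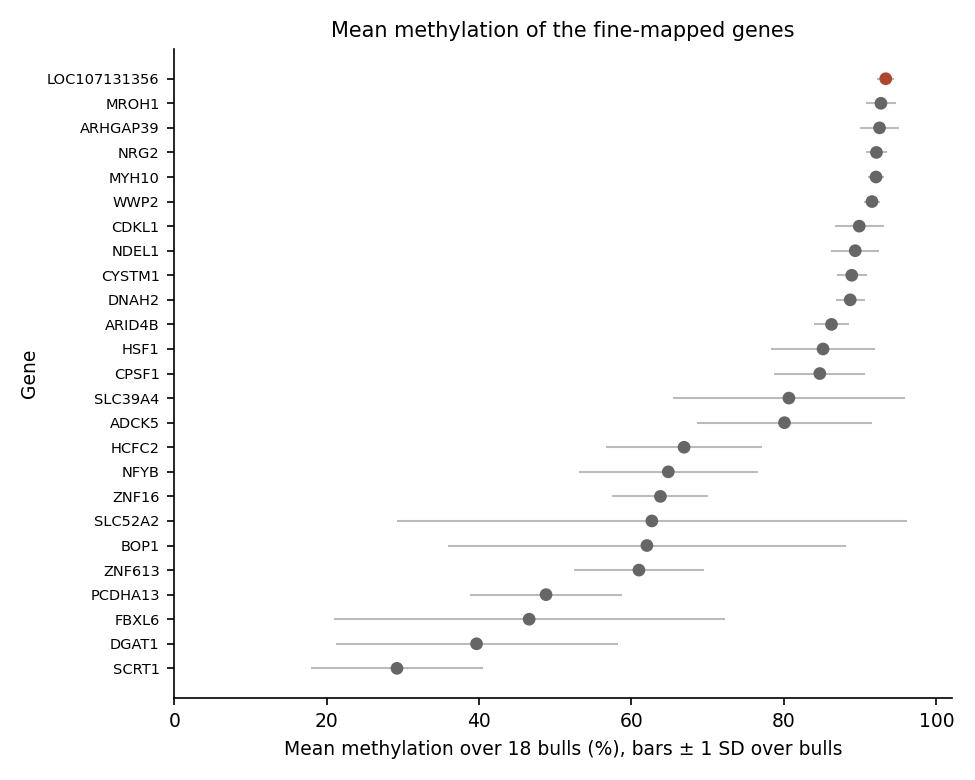
Mean methylation over 18 bulls (x axis, percent, bars ± 1 SD over bulls) of the 25 fine-mapped genes with 2000 bp on each side (y axis, ordered by mean), with LOC107131356 in red. It stands highest at 93.4%, and SCRT1 lowest at 29.2%.

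Positions with low values in most bulls were rare in the gene. Of the 1433 positions listed in at least 3 bulls, 11 had a mean under 50% and 2 a mean under 20%. These 2 are adjacent, like the strands of 1 CpG, at 95509153 and 95509154. The first was at 0% in all 5 bulls that list it, and the second was at 0% in 6 bulls and at 7.69% in L02. The next listed position below, at 65 bp, had a mean of 100%, and the next above, at 150 bp, had a mean of 91.4%. Across the genome 4.23% of positions listed in at least 5 bulls were under 20% in every bull, against 0.190% in the gene. A second adjacent pair, 95501820 and 95501821, lies just below the lower end of the gene and lay between 13.3% and 45.5% in the bulls that list it. The means were 29.2% and 29.8% (8 bulls each), and the next listed position on the lower side, at 17 bp, had a mean of 84.6%. The next on the upper side, 95501829, at 8 bp, had a mean of 56.0%.

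The bulls differed most at single positions scattered along the gene. Of the 1051 positions listed in at least 5 bulls, 30 (2.85%) ranged from 10% or less in 1 bull to 90% or more in another, a range chosen after the values were seen. The share was 1.67% of such positions across the genome, 1.74% on chromosome 4, and between 0% and 4.04% with a median of 0.679% in the 16 other fine-mapped genes with at least 100 such positions. The 30 positions lie in 19 of the 46 tiles with a median gap of 1978 bp. They hold 296 values, of which 42 were at 10% or less, 104 between 10% and 90% and 150 at 90% or more. They account for 43 of the 67 values under 20% in the gene, and 12 more belong to the pair at 95509153 and 95509154. At the 42 low values, the other positions of the same tile in the same bull had a median of at least 84.3%, with these 30 positions left out. Where the adjacent position was listed in the same bull, the values differed by a median of 9.09 points (61 comparisons). Pairs with both positions among the 30 were counted from each side.

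Among the 30, the position with most bulls was 95526032. It was at 0% in H02 and L03, at 33.3% in H01, 35.7% in H06, 41.7% in L06, 72.2% in L01, 75.0% in H03 and 84.6% in H04, and between 95.7% and 100% in the remaining 8 bulls. The same bulls were low at 95561322, which lies further up the gene. There H02 and L03 were at 0%, L01 at 23.1%, H06 at 33.3% and L06 at 54.5%, while the other 9 bulls were between 90% and 100%. At 95544122 the values were again 0% in H02 and L03, 14.3% in L01 and 54.5% in L06, with 8 bulls between 90.9% and 100%. At 95515106, in the lower part of the gene, the bulls were different ones. L02, L08 and L09 were at 0% there, H08 was at 37.0%, H05 at 72.7% and H07 at 86.7%, and 7 bulls including H02 were at 90% or more.

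Similar values were found over most of the 30 positions. Each was chosen for holding at least 1 bull at 10% or less, so counts of such bulls partly follow from that choice. The 30 positions were divided at the middle of the tile that holds the study's variant, a border set after the values were seen. At the 12 lower positions L02 was at 10% or less in 6 of the 6 it lists, L08 in 5 of 5 and L09 in 4 of 4. Of these lower positions only 95512989 and 95515106 held more than 1 bull at 10% or less, with 3 each. Over the 12 lower positions H08 was between 10% and 90% in 12 of 12, H05 in 8 of 8 and H04 in 5 of 5. There H06 (8 of 8) and L07 (7 of 7) were always at 90% or more. At the 18 upper positions H02 was at 10% or less in 13 of 16 and L03 in 7 of 9. There L01 was between 10% and 90% in 13 of 13, L06 in 12 of 13 and H06 in 10 of 12, and H09 was at 90% or more in 8 of 8. L08 was at 90% or more in 6 of its 7 upper positions and L02 in 5 of 7. H02 and L03 fell in the same class at 9 of the 10 positions that both list. At several upper positions H02 was the only bull at 10% or less. Other bulls were the low ones at 4 upper positions, 95536933, 95536934, 95541697 and 95585098, where H04, H05, L02 or L09 were at 10% or less and H02, at the 3 of these it lists, was at 100%.

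**Figure D3:**
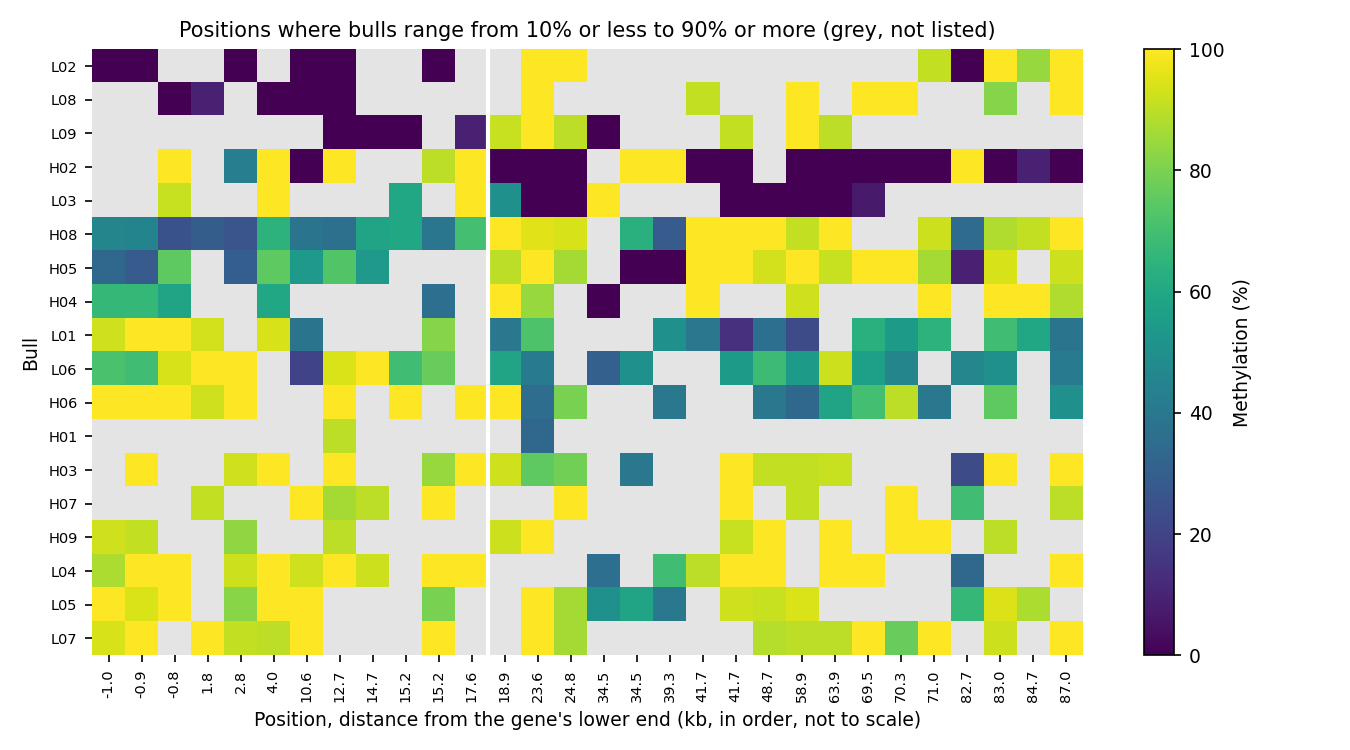
Methylation (colour, percent) of each bull (rows) at the 30 positions of LOC107131356 where bulls range from 10% or less to 90% or more (columns, in order, labelled by kb from the gene's lower end), with unlisted values in grey and a white line at the border between the 12 lower and 18 upper positions. L02, L08 and L09 are dark on the left, H02 and L03 are dark over most of the right, and H08, H05 and H04 on the left and L01, L06 and H06 on the right have intermediate colours.

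The spread between bulls was also set against the sampling of reads. In the 6 bulls with listed coverage, values at 404 positions deviated from the pooled level of their position by 10.6 points (root mean square), compared with 5.73 points from the sampling of reads alone. Without the 30 positions the figures were 6.91 and 5.32 points over 383 positions, and since the positions were chosen for their spread, leaving them out had to lower it. The gene mean of H02 rose by 2.47 points to 92.5% when they were left out, and that of L03 by 2.16 points to 94.7%. In the other labelled bulls it moved by between -0.0483 and 1.58 points.

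The comparisons of high and low groups asked whether methylation of the gene differed with each trait. No gene mean differed between groups in an exact permutation test (two-sided), as described for each trait below. With 3 bulls in each group the smallest p this test can give is 0.1, and with 4 it is 0.0286. Because bulls list different positions, a second value was computed with the position taken into account, from a fit of bull and position together. Tiles were compared by a logistic test of methylated and unmethylated reads, and a differentially methylated region (DMR) is a tile with q under 0.01 and a difference over 5 points, pooled over reads. This test takes reads as independent, as does a test stratified by position that is given beside it. The median statistic of the logistic test across the genome was between 2.40 and 3.07 times that of a test without differences. Calls are therefore given beside the share of all tested tiles called.

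For GL, the gene mean was 94.3% in H03, 93.9% in H09, 92.5% in L03 and 95.1% in L05 of the high group, and 90.1% in H02, 93.2% in H05, 93.0% in L01 and 92.9% in L07 of the low group. The groups overlapped through L03. The difference of 1.66 points did not pass the exact permutation test (p = 0.114, adjusted over 10 tests 0.381), nor did that of 1.61 points with the position taken into account (exact permutation p = 0.2). Within the bulls whose deposited values include coverage the difference was 1.85 points and within the others 1.47 points. The gene was also divided into 4 equal parts. From the lower end up the difference was 1.48, 1.11, -0.282 and 4.64 points, with no test run on the parts. In the uppermost part the high bulls were at 95.2% ± 0.592 (SD, n = 4) and the low bulls at 90.6% ± 4.47 (n = 4), with H02 at 84.2%. The groups overlapped in the other 3 parts and not in this one, and how often such parts do not overlap across the genome was not computed. Without L03 the difference of the gene means was 2.14 points (exact permutation p = 0.0286, the smallest possible), and without H02 it was 0.925 points (exact permutation p = 0.229). Without the 30 variable positions, a setting added after the values were seen, the difference of the gene means was 1.33 points and the groups overlapped (exact permutation p = 0.0571). With the position taken into account as well it was 1.25 points and they did not overlap (exact permutation p = 0.0286). These are 2 of the 10 tests run with that setting.

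Of the 36 gene tiles tested for GL, 4 (11.1%) were DMRs, compared with 8.75% of all tiles. All 4 were higher in the high group, a direction found in 4.99% of all tiles. In the tile from 95588001 the high bulls were at 96.6% (H03), 100% (H09), 94.6% (L03) and 98.2% (L05), and the low bulls at 78.3% (H02), 97.3% (H05), 83.9% (L01) and 91.9% (L07), a difference of 8.35 points. H09 lists 1 position in this tile, as in that from 95512001, and L03 lists 3 in this one. The groups overlapped through H05. In the tile from 95508001 the difference was 8.70 points, but L07 lists a single position there, the low position 95509154, and was at 0%, while the other 7 bulls were between 79.1% and 94.4%. Without L07 the difference was 6.66 points and was still called. L01 was also at 0% at 95509153 and 95509154, and H05 at 95509153. Of the high bulls only L05 lists either, 95509154 at 0%. The difference without both positions was not computed. The tiles from 95512001 and 95564001 differed by 6.45 and 5.30 points. The latter was not called without L01 (1.93 points), nor without H03, H09, L03 or L05 or with Benjamini-Hochberg adjustment, although it was then still between 5.02 and 5.65 points. The call was also lost without L01 in the tile from 95508001 (6.60 points), without L05 in that from 95512001 (5.95 points), and in that from 95588001 without L05 (7.65 points) or L01 (6.20 points). In none of the 4 tiles were all high bulls above all low bulls, whereas 1.38% of all tiles were DMRs without overlap. Called or not, 3 of the 36 gene tiles did not overlap, against 3.3% of all tiles. Matched on positions listed in both groups, the differences were 1.09, 5.15, 5.59 and 7.56 points in coordinate order, and a test stratified by position called 0 gene tiles against 2.19% of all tiles. Without the 30 variable positions 2 DMRs were left, the tiles from 95508001 and 95564001. The number of DMRs was 1 without L05 (7.84% of all tiles) and 1 without L01 (8.92%).

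For BDE, the gene mean was 90.1% in H02, 92.5% in L03 and 92.1% in L08 of the high group, and 93.2% in H05, 93.9% in H09 and 93.3% in L02 of the low group. Every high bull lay below every low bull. The difference was -1.91 points (exact permutation p = 0.1, the smallest possible, adjusted over 10 tests 0.381), and it was -2.53 points with the position taken into account, again without overlap (exact permutation p = 0.1). Without H02 the difference of the gene means was -1.17 points. It was -2.0 points within the bulls with coverage (H02 and L03 against L02) and -1.46 points within the others (L08 against H05 and H09), each with a group of 1 bull and so no measure of its spread. Over the 4 equal parts of the gene, from the lower end up, the difference was -0.252, -2.26, -4.10 and -4.83 points, and in each part the groups overlapped. Without the 30 variable positions the gene means were 93.6% ± 1.06 (SD, n = 3) and 94.2% ± 0.474 (n = 3), they overlapped, and the difference was -0.585 points (exact permutation p = 0.4). With the position taken into account as well it was -1.27 points (exact permutation p = 0.2). The 30 positions were chosen for holding bulls at 10% or less, which in the upper part were mainly H02 and L03 of the high group, so a smaller BDE difference without them follows from that choice. Over the 15 positions listed in all 6 bulls, 1 of which is among the 30, the difference was -6.18 points, the groups overlapped and the exact permutation p was 0.2.

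Of the 38 gene tiles tested for BDE, 5 (13.2%) were DMRs, compared with 7.57% of all tiles. All 5 were lower in the high group, a direction found in 2.86% of all tiles, and in 4 of them the groups did not overlap, against 2.83% of all tiles that were such DMRs. Without overlap, called or not, were 8 of the 38 gene tiles, against 10.1% of all tiles. The tile from 95560001 had 77.1% in H02, 50% in L03 and 93.0% in L08, against 94.1% in H05, 96.2% in H09 and 97.2% in L02, a difference of -16.4 points. H02 and L03 were the low bulls, though L03 lists only 2 positions there, and L08 lay just under the low group. Without L03 the difference was -11.1 points and was not called, and without L08 it was -25.1 points. The tile from 95570001 had 78.3% in H02, 69.0% in L03 (over 3 positions) and 90.7% in L08, against 96.7%, 96.0% and 98.3%, a difference of -16.2 points. The tile from 95544001 had 89.0% in H02, 72.5% in L03 (over 4 positions) and 95.2% in L08, against 97.9%, 97.7% and 98.3%, a difference of -10.4 points. It was the only one of the 5 that the test stratified by position called (q = 2.65e-06, 13 matched positions), at -17.8 points, and this test called 1.6% of all tiles. The stratified test pools the reads of the bulls of a group, so its q does not measure the spread between bulls. At matched positions the other 4 tiles differed by -13.9 (95560001), -10.2 (95566001), -11.6 (95570001) and -8.70 points (95574001), with q between 0.0169 and 0.0764. The tile from 95566001 differed by -10.5 points, with H02 at 79.5%, L03 at 76.1% and L08 at 94.4%. It was not called without H02 (-8.42 points) or without L03 (-6.96 points), and was -17.2 points without L08. In the tile from 95574001, at -10.7 points, L03 was at 100% and H02 at 74.6%, and the groups overlapped. Without L08 the number of DMRs was 8 (7.79% of all tiles).

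Each of the 4 BDE tiles without overlap holds at least 1 of the 30 variable positions, as do 19 of the 46 gene tiles. In these 4 tiles the bulls at 10% or less at such positions were H02 and L03 of the high group. Smaller differences without these positions therefore follow from how they were chosen. Without these positions the differences were 0.321 points in the tile from 95544001, -2.38 in that from 95560001, -1.10 in that from 95566001 and -3.79 in that from 95570001, and none of the 4 was called. The tile from 95574001 holds none of them and stayed a DMR, but it was not called without H02 (-1.75 points), L08 (-10.9), H05 (-11.6) or H09 (-10.5). H02 and L03, the bulls at 10% or less in most upper positions, are both in the high group, while the third high bull, L08, was at 10% or less in 0 of the 7 upper positions it lists.

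**Figure D4:**
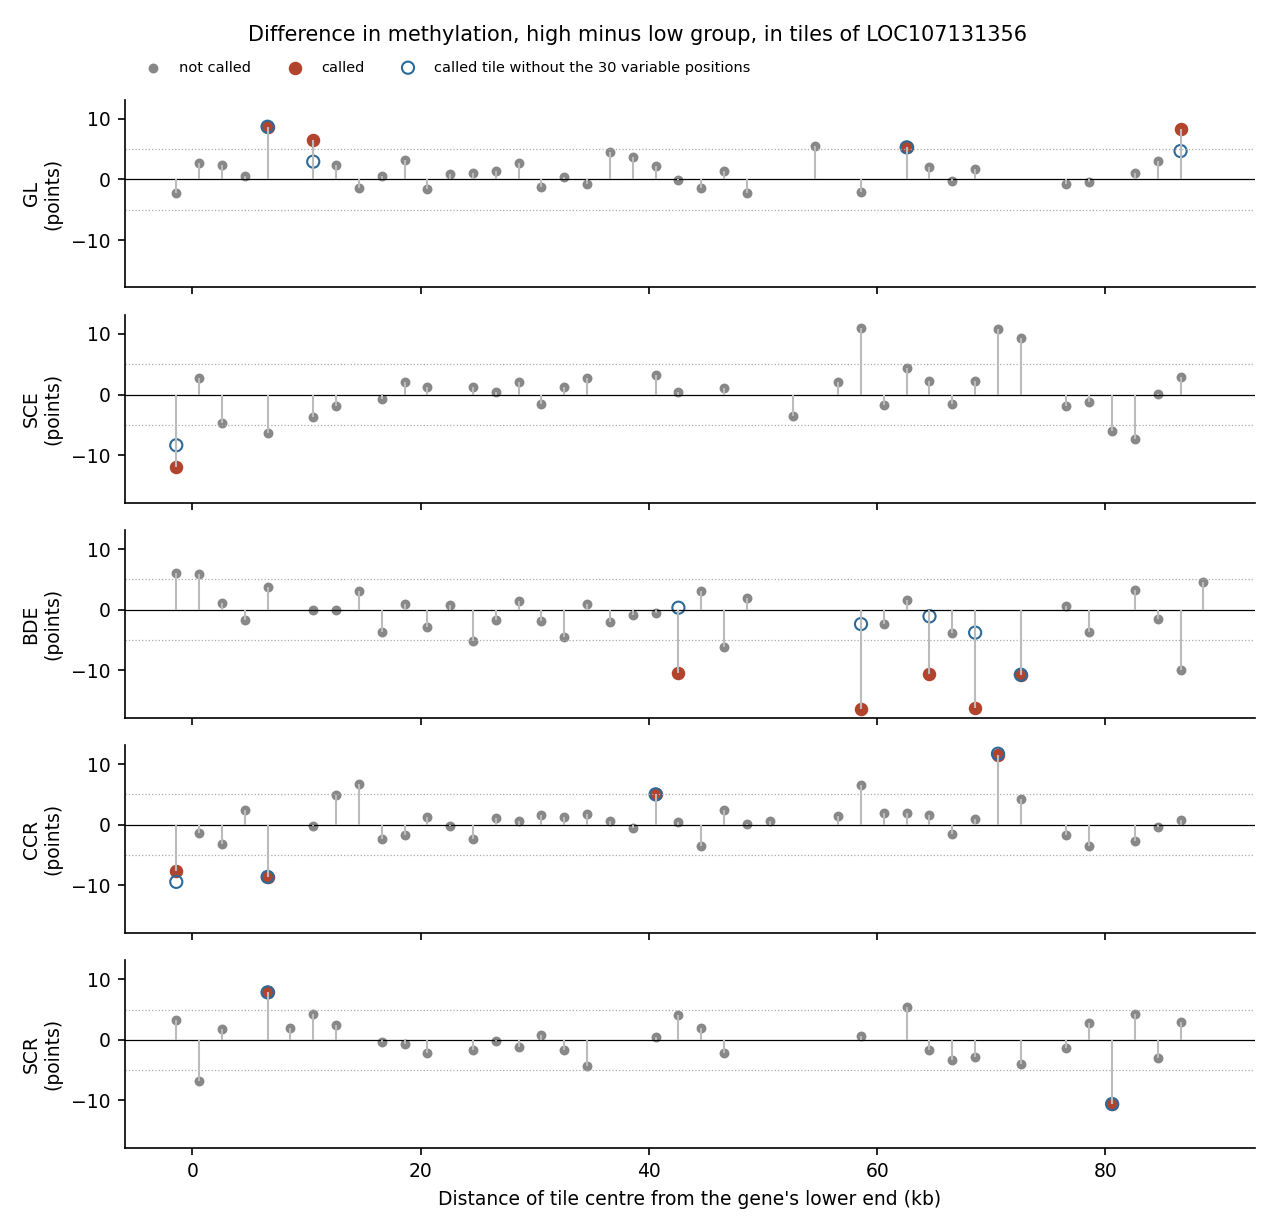
Difference in methylation, high minus low group (y axis, percentage points pooled over reads), of each tested tile of LOC107131356 by distance of its centre from the gene's lower end (x axis, kb), 1 panel for each trait. Red points are DMRs, grey points are not, dotted lines mark 5 points, and open blue circles show the DMRs without the 30 variable positions, which for BDE brings 4 of 5 to between -3.79 and 0.321 points.

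For CCR, the gene mean was 93.7% in H08, 93.9% in H09 and 92.8% in L06 against 93.1% in H06, 92.1% in L08 and 94.2% in L09. The groups overlapped and the difference was 0.309 points (exact permutation p = 0.7). Of 40 gene tiles 4 (10%) were DMRs, compared with 11.1% of all tiles. Called or not, 4 of the 40 did not overlap, against 9.95% of all tiles. The tile from 95572001 was 11.5 points higher in the high group, with bulls at 91.4%, 95.2% and 80.6% against 78.8%, 73.2% and 90.8%, which overlapped. The tile from 95542001 was 5.01 points higher, with 97.2%, 96.6% and 95.6% against 91.0%, 91.4% and 95.0%, and the tile from 95508001 differed by -8.61 points, with 88.5%, 90% and 87.1% against 97.6%, 100% and 90.8%. In both of these the groups did not overlap (3.58% of all tiles were such DMRs), and the test stratified by position called both (4.4% of all tiles). In the tile from 95508001 only H08 lists the low positions 95509153 and 95509154, at 0%. The levels without them were not computed. H09, L08 and L09 list 3 positions each there. The tile from 95542001 was not called, however, without H08 (4.17 points), H06 (4.15) or L08 (4.98), and that from 95508001 was not called without L06 (-7.89), H06 (-7.41) or L08 (-7.59) or with Benjamini-Hochberg adjustment. The tile from 95572001 lost its call without H08, H09, H06 or L08, at between 8.58 and 11.8 points. In the tile from 95500001, mostly in the flank below the gene, the pooled difference was -7.67 points, but the mean over bulls was 85.7% in the high and 85.6% in the low group, where L08 was at 60% over 3 positions. At 20 matched positions it was -3.50 points (stratified test, q = 0.290). Of the bulls compared only the high ones list 95501820 or 95501821 in this tile, at 13.3% to 45.5%. The difference without this pair was not computed. Without H06 the pooled difference was 14.6 points, without L08 -12.5 points and without H08 -3.68 points. The tile was not called without H08 or L09 or with Benjamini-Hochberg adjustment. The number of DMRs was 2 without H08 (16.9% of all tiles), 2 without H06 (8.53%) and 2 without L08 (11.0%).

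For SCE, the gene mean was 94.3% in H03, 93.4% in H07 and 93.3% in L02 against 94.0% in H01, 93.1% in H06 and 94.2% in L09, a difference of -0.102 points (exact permutation p = 1). Of 34 gene tiles 1 (2.94%) was a DMR, compared with 6.18% of all tiles. This was the tile from 95500001 to 95502000, which lies wholly below the gene and mostly within its 2000 bp flank. Over its positions within 2000 bp of the gene, high bulls were at 87.6%, 84.8% and 80.5% and low bulls at 95.6%, 97.2% and 100%. Over the whole tile the groups did not overlap, and the difference of -11.9 points was -8.09 points at 17 matched positions, where the stratified test called it (q = 0.00796). It was the only 1 of the 34 without overlap, called or not, against 9.27% of all tiles. Of all tiles, 2.16% were DMRs without overlap and 1.31% were called by the stratified test. L09 lists 1 position of this tile within 2000 bp of the gene. The tile stayed a DMR at -8.36 points without the variable positions, of which 3 lie in it. It also holds 95501820 and 95501821, which were low in every bull that lists them. Of the bulls compared only H03 (20% and 25%) and H07 (36.4% at the first) list them, both of the high group. The difference without this pair was not computed. Without H03, H01, H06 or L09 the number of DMRs was 2, with between 6.17% and 6.80% of all tiles called.

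For SCR, the gene mean was 94.0% in H01, 90.1% in H02 and 94.3% in H03 against 93.0% in L01, 93.3% in L02 and 92.5% in L03. The difference was -0.166 points (exact permutation p = 1), with H02 below and the other 2 high bulls above every low bull. Without H02 it was 1.18 points (exact permutation p = 0.1, the smallest possible). Of 32 gene tiles 2 (6.25%) were DMRs, compared with 8.68% of all tiles, and in both the groups did not overlap, against 2.74% of all tiles. Called or not, 4 of the 32 did not overlap, against 9.12% of all tiles. The tile from 95508001 was 7.83 points higher in the high group, with 90.9%, 91.5% and 94.4% against 79.1%, 87.6% and 88.5%, but the difference was -1.32 points at matched positions. L01 and L02 list the low positions 95509153 and 95509154 in this tile, and no high bull does. The tile was not called without L01 (5.09 points) or H03 (5.90). The tile from 95582001 was 10.6 points lower, with 90.9%, 70.5% and 90.2% against 98.8%, 92.5% and 96.5%, and the difference was -0.142 points at matched positions. H01 lists 1 position in this tile, as it does in the tile from 95508001, and H02 lists 4 in this one. The tile from 95582001 was not called without H02 (-5.12 points), L01 (-9.28) or L03 (-10.8), and its difference was -21.4 points without H03. The stratified test called 0 gene tiles for SCR against 2.51% of all tiles. The number of DMRs was 4 without H03 (8.87% of all tiles), 4 without L02 (8.77%) and 1 without L01 (9.26%).

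**Figure D5:**
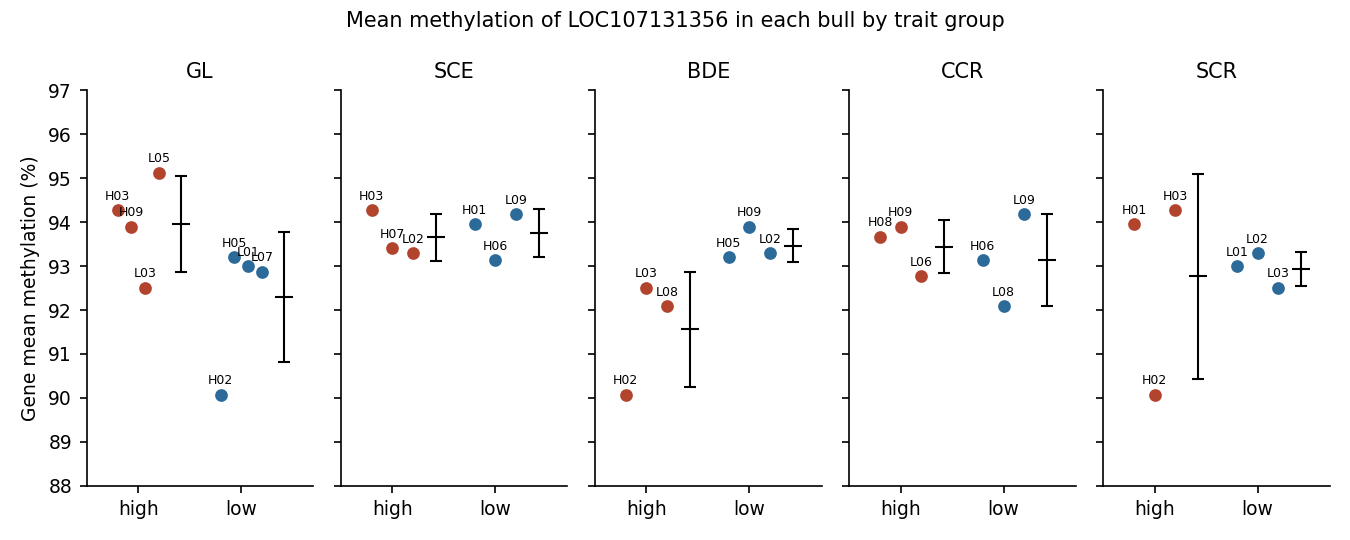
Mean methylation of LOC107131356 in each bull (y axis, percent, from 88 to 97) by group of each of 5 traits (x axis), with the mean ± 1 SD of each group in black. High and low bulls overlap for every trait except BDE, where the high bulls are between 90.1% and 92.5% and the low bulls between 93.2% and 93.9%.

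With tests that estimate the spread between bulls of a group, no tile of the gene was called for any trait. Both an F test corrected for overdispersion and limma with Benjamini-Hochberg adjustment called 0 tiles in the gene and 0 (0%) of all tiles, and the smallest limma adjusted p in the gene was 0.98 (GL). Before adjustment, with p under 0.05 and the groups more than 5 points apart, 1 gene tile passed the F test for GL (3.47% of all tiles), 2 for SCE (2.46%), 2 for BDE (2.81%), 2 for CCR (2.89%) and 1 for SCR (2.72%). By limma the counts were 0 for GL (3.59% of all tiles), 1 for SCE (3.3%), 5 for BDE (3.84%), 0 for CCR (3.61%) and 1 for SCR (3.4%).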

How the data were processed

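Sperm DNA of 18 Holstein bulls was bisulfite-converted and sequenced as 150-bp paired-end reads. According to the submitters' processing notes and the methods, reads were checked with FastQC 0.11.2, cleaned with Trim Galore 0.4.0, mapped to UMD 3.1 with Bowtie2 (version not given in the sources used here), and methylation was extracted with Bismark 0.14.5. The authors deposited a percent of methylated reads for every CpG position with 10 or more reads, and each strand has its own position. The deposited data of 6 bulls also give the count of reads. The deposited data of the other 12 list no count and their reads were not used here, so each position counted as 10 reads for GL, SCE, BDE and CCR, and the listed counts were used for SCR. The design had assumed counts in all bulls.

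Positions were summed in tiles of 2000 bp, tested where every bull of a comparison lists at least 1 position. A logistic likelihood ratio test without overdispersion was run over all tiles, after the study's methods, with q values by a simplified SLIM (sliding linear model) estimate. Alternatives were an F test with overdispersion, limma 3.58.1 (R 4.3.3), with 1 read added, on a log2 ratio (methylated over unmethylated) made here from the deposited percent, and the Cochran-Mantel-Haenszel test with positions as strata. Python 3.11.15, NumPy 2.4.6 and SciPy 1.17.1 were used. The tests were tested on simulated data. Gene means were compared by exact permutation tests over bulls. Between any pair of bulls at most 5.35% of shared intermediate values (20% to 80%, chromosome 4) were identical, so no library was counted as deposited more than once. This comparison of values cannot show whether different libraries came from the same animal.

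Named tiles were those called for any trait, the one with the study's variant, the 3 lowest and the highest by mean and the 3 with the largest SD. Named positions were the 5 lowest by mean and the 5 with the largest SD among those in at least 12 bulls (the same 5 positions), and the 3 most alike fine-mapped genes were named. The 11 positions with a mean under 50% and the 30 variable positions were chosen after their values were seen. The gene and these lists were chosen with earlier results of these data known. No sequence of the gene in UMD 3.1 was used here.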

Additional observations from a re-analysis of the deposited data

Results flagged for a closer look

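In the groups of 4 bulls, the highest and lowest bull were compared with the rest by Dixon's ratio in 12 groups of values, and chance flags about 1 in 20 groups. H02 stood apart from the other low-GL bulls in the gene mean, at 90.1% against 92.9% to 93.2%, a gap that makes up most of the range. H02 lists 520 positions in the gene, 21 of them under 20%, of which 14 are among the 30 variable positions. Its position-adjusted value did not pass the same ratio. L07 stood apart in the tile from 95508001, at 0% against 79.1% to 91.5% in the other low-GL bulls. It lists 1 position in that tile, 95509154, which was at 0% in 6 of the 7 bulls that list it and at 7.69% in the other.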

How the results depend on the processing

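The number of DMRs in the gene depended on the settings. In place of 4 (GL), 1 (SCE), 5 (BDE), 4 (CCR) and 2 (SCR), limma and the overdispersed F test called 0 for every trait. At least 3 positions per tile gave 1 of 25 tested tiles for GL (8.77% of all tiles called), 0 of 8 for SCE (6.63%), 3 of 26 for BDE (8.15%), 2 of 24 for CCR (11.4%) and 0 of 10 for SCR (9.33%), so fewer tiles of the gene were tested. The test stratified by position gave 0 for GL (2.19%), 1 for BDE (1.6%), 2 for CCR (4.4%) and 0 for SCR (2.51%). A difference over 10 points gave 0 for GL (4.9%), 1 for CCR (7.09%) and 1 for SCR (5.64%). With 13 reads per position SCE had 4 of 34, while the share of all tiles rose from 6.18% to 10.1%. With 10 reads SCR had 1 of 32 (6.05%), and with at least 15 reads 0 of only 2 tested tiles (13.8%), which carries no information. CCR had 2 in tiles shifted by 1000 bp (11.0%) and 2 with Benjamini-Hochberg adjustment (9.94%), and SCE had 0 in the gene body alone. Without the 30 variable positions, an alternative chosen after seeing the data, GL had 2 (8.75%) and BDE 1 (7.56%). These positions were chosen for their range, so a smaller spread without them follows from that choice. In the same setting the CCR tile from 95572001 lost its call, at 11.7 points, and the SCR tile from 95584001 became a DMR, at 6.33 points. Beyond the number of tiles tested, the cause of these changes was not tested. With 1 bull left out the number ranged from 1 to 5 for GL, 1 to 2 for SCE, 4 to 8 for BDE (8 without L08), 2 to 4 for CCR and 1 to 4 for SCR.

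Among named tiles, the difference changed sign in the BDE tile from 95544001 without the variable positions (0.321 points), in the SCR tile from 95508001 in the stratified test (-1.32 points) and in the CCR tile from 95500001 with 1 bull left out (-12.5 to 14.6 points).

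No difference of gene means passed 0.05 with all bulls. For the traits other than GL this was fixed in advance, since with 3 bulls in each group the smallest p of the exact permutation test is 0.1. Leaving out each bull in turn, the difference of gene means ran from 0.925 to 2.14 points for GL, -0.411 to 0.108 for SCE, -2.38 to -1.17 for BDE, -0.215 to 0.830 for CCR and -0.916 to 1.18 for SCR. With the position taken into account the range was 0.863 to 2.26 for GL, 0.169 to 0.763 for SCE, -2.91 to -1.84 for BDE, 0.0974 to 1.52 for CCR and -1.06 to 1.13 for SCR. The GL difference without the variable positions was 1.33 points with overlap (exact permutation p = 0.0571), and 1.25 points without overlap with the position taken into account (exact permutation p = 0.0286). Small differences changed sign. The SCE difference of gene means was -0.102 in the main setting, 0.122 as a mean of tile means and 0.283 in the gene body. With the position taken into account it was 0.439 in the main setting, -0.0757 over positions in at least 9 bulls and -0.0183 without the variable positions. The CCR difference of gene means was 0.309 in the main setting and -0.459 without the variable positions. With the position taken into account, that of SCR was -0.142 in the main setting and 0.413 over positions in at least 9 bulls. Over positions listed in every bull of a comparison (10 to 25), the difference was 1.27 for GL, -0.676 for SCE, -6.18 for BDE, 1.10 for CCR and -0.857 for SCR. The gene exceeded its flanks by 22.2 points with flanks of 500000 bp, and by 1.94 to 4.36 in 3 other settings. No paired analysis was possible because all bulls are different animals and the labels tie none of a high group to one of a low group. The numbers that the SCR groups share are only part of the bull names. Unknown depth in 12 bulls and few listed positions in some, 119 in H01, limit what these values can show.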

Other observations

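H04 and L04, which carry no group, had gene means of 94.6% over 599 positions and 94.5% over 762 positions. These lie within the range of the labelled bulls, below L05 at 95.1%. The gene exceeded the 100000 bp on each side by 5.91 points in H04 and by 5.51 points in L04. At the 12 lower variable positions H04 was between 10% and 90% in 5 of the 5 it lists, and L04 was at 90% or more in 9 of 10. At the 18 upper ones H04 was at 90% or more in 6 of 9 and L04 in 6 of 9.

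Adjacent positions, taken as the strands of 1 CpG, formed 782 pairs. In the 1620 cases where a bull lists both, the values differed by a median of 5.88 points, and 96.8% of cases differed by at most 20 points. The means were 93.6% for the first and 94.0% for the second position. Only 2 cases differed by over 50 points. The largest mean difference between the positions of a pair listed together in at least 3 bulls was 32.9 points, at 95501829 and 95501830, with 53.8% and 86.7% over 3 bulls. This pair lies next to 95501820 and 95501821, which were between 13.3% and 45.5% in the bulls that list them.

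The tiles of the gene with the largest spread over 18 bulls were those from 95508001 (SD 22.1 points), 95526001 (SD 14.7) and 95560001 (SD 12). The lowest bull was L07 at 0% in the first, H01 at 33.3% in the second and L03 at 50% in the third. The lowest bull of the second tile lists only 95526032 there, a variable position. That of the third lists 2 positions.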
